A study of Mus musculus with 19 samples.

Results

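RNA of 4 mouse hepatocyte samples was sequenced with each of 2 library kits, and the 2 libraries of a sample were compared gene by gene. The samples, CTL 5 and the RED samples 2, 3 and 4, were chosen as the ones that the study carried through both of its experiments. They are 4 of the 15 samples of the study and gave 8 of its 19 libraries. Experiment 1 used the TruSeq Stranded mRNA kit, which captures RNA by its poly(A) tail. Experiment 2 used the KAPA RNA HyperPrep kit with RiboErase, which removes ribosomal RNA and keeps the rest of the total RNA. Each library started from 150 ng of total RNA. CTL 5 held native hepatocytes of a healthy (control) liver, and RED 2, RED 3 and RED 4 held native tdTomato hepatocytes of livers with chronic injury. The genotype of every sample was OPN-CreERT2;Rosa26R-mT/mG. It combines a tamoxifen-inducible Cre under the osteopontin (OPN) promoter, which among liver epithelial cells is active mainly in bile duct cells, with a reporter that turns from tdTomato to GFP in cells where Cre has acted. GREEN hepatocytes, described by the labels as DR-derived and also from chronically injured liver, had no sample in both experiments and served only in the comparison of other libraries. The sources used here give neither the agent or diet that caused the injury nor whether the same RNA extract fed both libraries of a sample. Every experiment 1 library was made with 1 kit and every experiment 2 library with the other, so the kit and anything else that differed between the experiments, sequencing depth included, cannot be told apart.

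As background, most mRNAs receive a poly(A) tail after cleavage near a signal such as AATAAA. The mRNAs of replication-dependent histones, which package new DNA in S phase, are the textbook exception in animal cells: they end just after a short stem-loop and carry no tail. Ribosomal RNA, the RNA parts of RNase P and RNase MRP and most small nuclear and nucleolar RNAs also lack a long tail. A library made without poly(A) selection can hold all of these, as well as unspliced nuclear RNA. Hepatocytes devote much of their mRNA to secreted plasma proteins, to metabolic enzymes and to mitochondria.

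Between the kits, each library resembled the library of the same sample more than those of other samples. Across 12637 genes with a mean of at least 1 CPM, each library's deviation from the mean of its experiment was compared between experiments. The correlation was 0.91 for CTL 5, 0.78 for RED 2, 0.88 for RED 3 and 0.90 for RED 4, and between -0.73 and 0.23 for libraries of different samples. Because that mean is of only 4 libraries, removing it lowers the correlations between different samples. Without removing it, the correlation of log2 CPM between the kits was 0.93 to 0.95 for the 2 libraries of a sample. For libraries of different samples it was 0.81 to 0.90. RED 2 and RED 3 correlated as closely within a kit (0.94 in each) as the 2 libraries of a sample did. Total estimated counts were 22442607 to 30940416 in the 4 libraries of experiment 1 and 38061859 to 42493456 in those of experiment 2. The hepatocyte markers were abundant in all 8 libraries, with albumin (Alb) at 41829.7 to 114079 CPM. CPM here are counts scaled to a common library size after TMM scaling, an adjustment for differences in RNA composition. The TMM factor was higher in experiment 2 for each of the 4 samples, and scaling by library totals instead moved the median of all log2 fold changes up by 0.23. Where the direction of a list median or of a named gene that passed depends on this scaling, that is stated. Genes that did not pass and had small values can also change sign with it.

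Most genes differed between the kits by a small and repeatable amount. Of 14625 genes tested, 8146 passed the threshold of edgeR's quasi-likelihood test in a fit paired by sample (Benjamini-Hochberg adjusted p under 0.05), which is 55.7% of them. In experiment 2, 4196 genes (28.7%) were higher and 3950 (27%) were lower. Treated as unpaired, without a term for the sample, the same libraries gave 2389 calls. The median log2 fold change, experiment 2 over experiment 1, was 0.03, and the 25th to the 75th percentile ran from -0.27 to 0.38. The 5th percentile was -0.74 and the 95th was 1.78, so the tail of higher genes was the longer. Tested against a 2-fold change, 707 genes passed (4.83%), 615 of them higher (4.21%) and 92 lower (0.629%), and 465 passed without RED 3. The median standard deviation of a gene's 4 pair differences was 0.18, and 0.12 for the 7750 genes with a mean of at least 10 CPM. With library totals in place of TMM, 78.1% of the calls were higher, against 51.5% with TMM. By those totals 6960 genes were higher and 1950 lower, with a median log2 fold change of 0.26. Of the 8146 called genes, 7841 moved the same way in all 4 samples, whereas 9324 of all genes tested (63.8%) did.

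The replication-dependent histone genes were the list with the highest median. The tables held 67 of them, and 49 had enough counts to be tested. In experiment 2, 45 of these 49 were higher and none was lower, against 28.7% and 27% of all genes, and 39 passed the test against 2-fold (4.21% of all genes). The list's median log2 fold change was 4.64, beside 0.03 for all genes tested. Its median in single samples was 4.87 in CTL 5, 3.72 in RED 2, 5.33 in RED 3 and 4.49 in RED 4. For 39 of the 49 genes every experiment 2 library lay above, or every one below, every experiment 1 library, against 19.2% of all genes tested. The 18 untested genes had few counts: at most 12 summed over the 4 libraries of experiment 1 and at most 465 over those of experiment 2. The filter keeps a gene that is high in either experiment, so the 49 are not a random draw of the 67.

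The histone genes did not share 1 response, and their annotated 3′ ends were read from the GENCODE M21 transcripts (GRCm38) to describe them. The stem-loop was searched on the transcript's own strand as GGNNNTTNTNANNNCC, with the first 6 bases complementary to the last 6. It lay in the last 100 bases of the transcript in 23 of 21859 protein-coding genes (0.105%), and all 23 were replication-dependent histones of the list. A poly(A) signal, AATAAA or ATTAAA in the last 40 bases, was present in 76.1% of the protein-coding genes and in 17 of the 67 histones. The stem-loops below are those of 7 histones from the middle, the top and the bottom of the range of fold changes, whose values are given with the results. Capitals mark the 16 bases of the stem-loop, and the coordinates are those of these 16 bases in GRCm38.
Hist1h4f, minus strand, chr13:23551291-23551306: tcaaaGGCCCTTTTCAGGGCCaccca
Hist2h2aa2, minus strand, chr3:96239784-96239799: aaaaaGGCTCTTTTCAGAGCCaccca
Hist2h2aa1, plus strand, chr3:96246032-96246047: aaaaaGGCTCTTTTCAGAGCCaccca
Hist1h4h, plus strand, chr13:23531458-23531473: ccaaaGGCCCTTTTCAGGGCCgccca
Hist1h1e, minus strand, chr13:23621782-23621797: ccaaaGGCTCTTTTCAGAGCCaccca
Hist1h4i, minus strand, chr13:22040966-22040981: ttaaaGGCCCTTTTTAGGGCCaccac
Hist1h1c, plus strand, chr13:23739512-23739527: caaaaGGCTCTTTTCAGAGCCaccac
The stem-loops of Hist1h4i, Hist1h1c and Hist1h1e are followed by another 330, 840 and 1153 bases of annotated transcript. The transcripts of Hist1h4i and Hist1h1c end near a poly(A) signal, as does Hist2h2be, which has no stem-loop by this search. Hist1h1e has no such signal, whereas Hist1h4h has one. Signals were also present in genes with large changes, such as Hist1h4a (log2 6.68) and Hist1h4j (4.66). In the ends printed here, all of genes with small changes, the capitals mark the signal.
Hist1h4i: ttacATTAAAagtattctatgctaa
Hist1h1c: ttctAATAAAaagcgtttagttttca
Hist2h2be: tattAATAAAgttaccgattagtttc

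Histone genes whose annotated transcript stops at the stem-loop had the highest median. Of the 23 with the stem-loop in the last 100 bases, 14 were tested and 14 were higher, with a median log2 fold change of 6.17 (0.55 to 10.81). Of the 17 whose transcript ends within 100 bases of the stop codon, before any stem-loop, 10 were tested and 10 were higher (median 5.09). The 11 with a stem-loop farther from the end and no poly(A) signal were all tested and all higher (median 4.58). The 12 with a stem-loop farther upstream and a poly(A) signal at the end spread more widely: 9 of 10 tested were higher, with values from 0.45 to 6.68 and a median of 2.61. The 4 genes with no stem-loop and a transcript that runs more than 100 bases past the stop codon had a median of 0.11, and only Hist1h2bq of them passed (0.77). Of the 14 tested with the stem-loop near the end, 6 had at most 3 counts over the 4 libraries of experiment 1. So had 3 of the 10 tested that end before any stem-loop, and none in the other classes. The sizes of those rises are poorly bounded, and the count filter also left genes of these classes untested. The order of the class medians is therefore uncertain. These classes describe the annotation, and which transcript a sample held was not measured. Among the other protein-coding genes the signal went with little difference, since the median was 0.01 for the 11516 with a signal and 0.05 for the 2348 without.

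**Figure D1:**
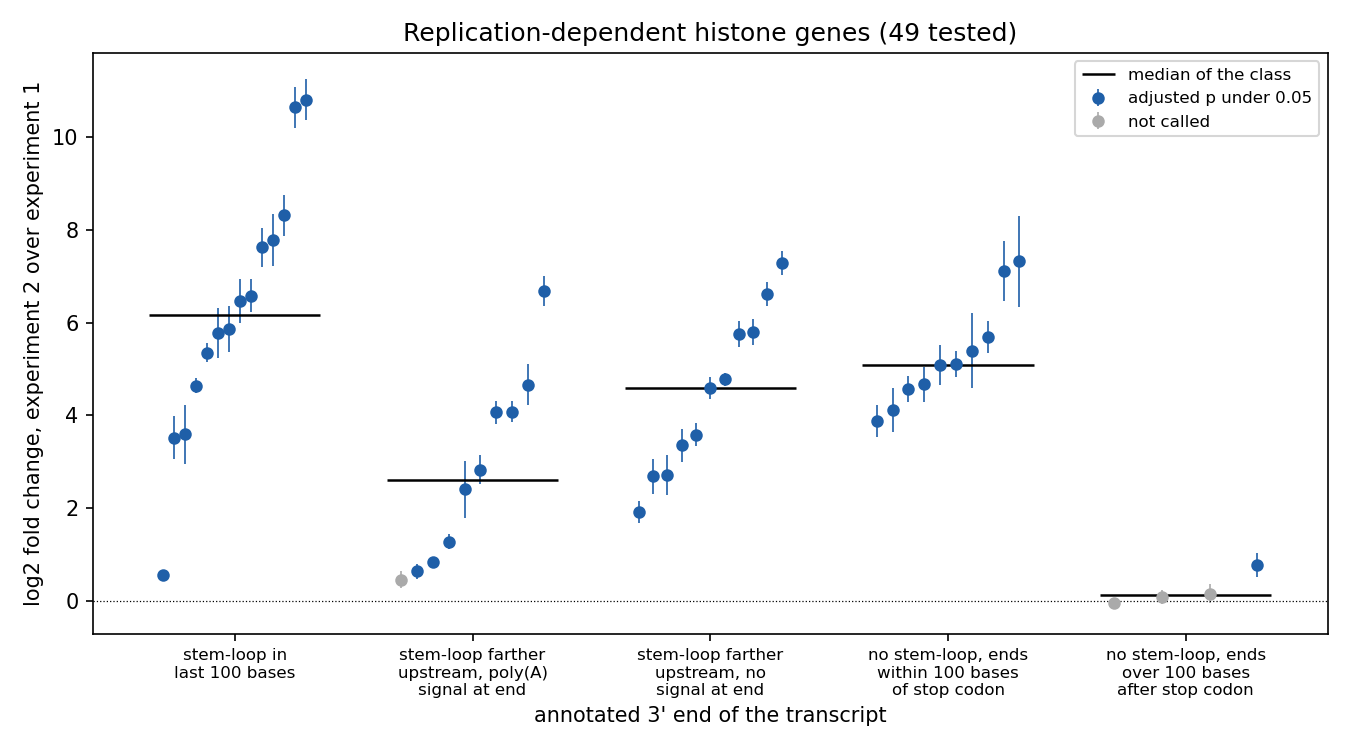
Log2 fold change (experiment 2 over experiment 1) of the 49 tested replication-dependent histone genes, grouped by the annotated 3′ end. Points are genes, bars are 1 standard error of the fit, horizontal lines are class medians; the medians are 6.17, 2.61, 4.58, 5.09 and 0.11 from left to right, and the 4 grey genes did not pass the threshold.

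Hist1h4h (ENSMUSG00000060981.7, chromosome 13, 23531050 to 23531519), which encodes histone H4, shows the size of the change in a well-counted member. Its level in CTL 5, RED 2, RED 3 and RED 4 was 2.37, 2.09, 1.32 and 1.62 CPM in experiment 1 and 59.0, 28.6, 53.7 and 41.5 CPM in experiment 2. The ranges were far apart, and RED 2 had the lowest value in experiment 2. The fitted log2 fold change was 4.64 ± 0.17 (SE, n = 4 pairs; edgeR quasi-likelihood adjusted p 1.1e-07). Hist1h1e, a linker histone H1, went from 2.14, 1.77, 1.58 and 1.46 CPM to 49.3, 33.3, 63.8 and 41.7 CPM in the same order of samples (log2 4.78 ± 0.14). Hist1h4d and Hist1h4c, 2 more H4 genes, rose by 7.28 and 6.62 on the log2 scale, and Hist1h1d, another H1 gene, by 3.59. Hist1h4f had no count in any experiment 1 library and 2.94, 3.51, 11.1 and 6.82 CPM in experiment 2. Against a floor of 3 counts over the 4 libraries of experiment 1, it was at least 210-fold higher in experiment 2. Hist2h2aa2, an H2A gene, also had no count in experiment 1, and was at least 191-fold higher. Genes with near-identical copies share reads in kallisto's estimate, and Hist2h2aa1, whose printed stem-loop sequence is the same as that of Hist2h2aa2, went only from 31.4, 52.7, 27.0 and 18.0 CPM to 54.8, 54.2, 43.5 and 29.9 CPM (log2 0.55 ± 0.11), so the split between these 2 copies is uncertain.

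Of the 4 histones that did not pass, 1 was well counted. Hist1h2bc (ENSMUSG00000018102.5, chromosome 13, 23684199 to 23692908), an H2B gene without a stem-loop in the annotated transcript, had 104, 27.8, 57.4 and 57.9 CPM in experiment 1 and 90.4, 36.3, 52.7 and 49.6 CPM in experiment 2. Its ranges overlapped almost fully, with CTL 5 highest and RED 2 lowest in each experiment (log2 -0.06 ± 0.09, adjusted p 0.63). By library totals it had 0.18. The other genes that did not pass were Hist2h2be (0.07), Hist1h2br (0.15) and Hist1h4i (0.45, adjusted p 0.066), here named after their values were seen. Their levels were low, with means of 2.55, 1.55 and 4.16 CPM. Hist1h1c, another H1 gene and the second most abundant member, went from 26.2, 42.5, 61.8 and 31.1 CPM to 48.9, 61.6, 105.7 and 70.1 CPM (log2 0.84 ± 0.09). It was higher in each of the 4 samples, but its ranges overlapped. By histone type, the counts were 5 of 5 H1 genes, 12 of 12 H2A, 7 of 10 H2B, 10 of 10 H3 and 11 of 12 H4 genes higher, and H2B had the lowest median (2.75, against 4.56 to 5.93 for the others). Together the 67 genes held 0.0130 to 0.0186% of all counts in experiment 1 and 0.0415 to 0.0911% in experiment 2. The share rose in each of the 4 samples (mean log2 ratio 1.92 ± 0.44 SD; exact two-sided permutation p 0.13, the smallest that 4 pairs allow).

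Replication-independent histone variants, whose mRNAs are polyadenylated, did not follow. Of the 15 on the list 9 were in the tables. Of these 1 was higher and 5 were lower, against 28.7% and 27% of all genes. Their median was -0.21 (0.02 by library totals, with 2 higher and 2 lower). H2afz, the H2A.Z gene, fell by 0.83 on the log2 scale, and H3f3a, an H3.3 gene, fell by 0.76. H2afy, which encodes macroH2A1, was the member that rose (0.26).

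Several single genes rose as steeply as the histones, and some of them share sequence with a small noncoding RNA. None of the small structured RNAs is itself in the tables, and neither are the 28 listed nuclear and long noncoding RNAs such as Malat1 and Neat1, so reads from them could be counted only where a listed transcript has the same bases. Of the genes tested, 48 had a transcript that shares at least one 31-mer, a stretch of 31 bases, with a named small RNA in either orientation. Small RNAs whose symbol is Gm and a number, and ribosomal RNA, were not searched. Of these, 11 were higher and 22 were lower, against 28.7% and 27% of all genes, with a median of -0.11. The sign of that median depends on the scaling. In the middle of the set, Eif5 and 2410002F23Rik had -0.08 and -0.15, but 0.15 and 0.08 by library totals. The 34 that share a stretch with a small nucleolar RNA had 4 higher and 20 lower (median -0.30), and ribosomal protein genes, described with the short mRNAs, are among them. The largest rises were in the genes that overlap the RNA parts of RNase P (Rpph1) and RNase MRP (Rmrp).

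Ccnb1ip1 (ENSMUSG00000071470.4, chromosome 14, 50789248 to 50807732), which encodes a cyclin B1 interacting protein, went from 0.410, 0.499, 2.36 and 34.8 CPM in experiment 1 to 1346, 604, 1329 and 1405 CPM in experiment 2 for CTL 5, RED 2, RED 3 and RED 4. The groups were far apart, and the experiment 1 library of RED 4 stood well above the other 3 (log2 8.22 ± 0.81, adjusted p 2.2e-05). Bases 1 to 233 of 1 of its annotated transcripts, in the 5′ UTR, are the same bases on the same strand as Rpph1. Ccdc107 (ENSMUSG00000028461.12, chromosome 4, 43492900 to 43495921), a gene for a coiled-coil protein, rose from 19.5, 21.1, 20.2 and 33.8 CPM to 512.7, 120.5, 257 and 381 CPM (log2 3.60 ± 0.27), and 124 bases of an annotated transcript lie opposite to Rmrp. Ncapd2, a condensin subunit, rose from 3.55, 3.94, 9.46 and 8.50 CPM to 31.3, 25.6, 59.3 and 81.7 CPM (log2 2.93 ± 0.11), and 237 bases of a transcript annotated as a retained intron are also part of Scarna10. Rps12, a ribosomal protein of the small subunit, rose from 4.78, 5.03, 4.39 and 6.04 CPM to 22.8, 14.6, 19.3 and 18.6 CPM (log2 1.89 ± 0.12), and a retained-intron transcript contains all 129 bases of Snora33. In each of the 4 genes every experiment 2 library lay above every experiment 1 library. How many of the counts came from the shared bases was not tested, since the tables hold 1 value per gene. The boundaries of the shared stretches are shown here, each on the strand of the gene named, with capitals for bases that also belong to the small RNA and lower case for bases that belong to the gene alone. The coordinates are those of the whole shared stretch in GRCm38.
Ccnb1ip1 and Rpph1, chr14:50807500-50807732: GTGCGAGTTCAATGGCTGAGaaatgaagga
Ccdc107 and Rmrp, chr4:43492900-43493023: GGATAAGGAACATGTCCCTCaacggggctc
Ncapd2 and Scarna10, chr6:125186359-125186595: TCTTTGGTAATCTGATGGCTataagcgcta
Rps12 and Snora33, chr10:23785347-23785475: catcatttgaAAGCCAGCCAATTAATCTGC

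**Figure D2:**
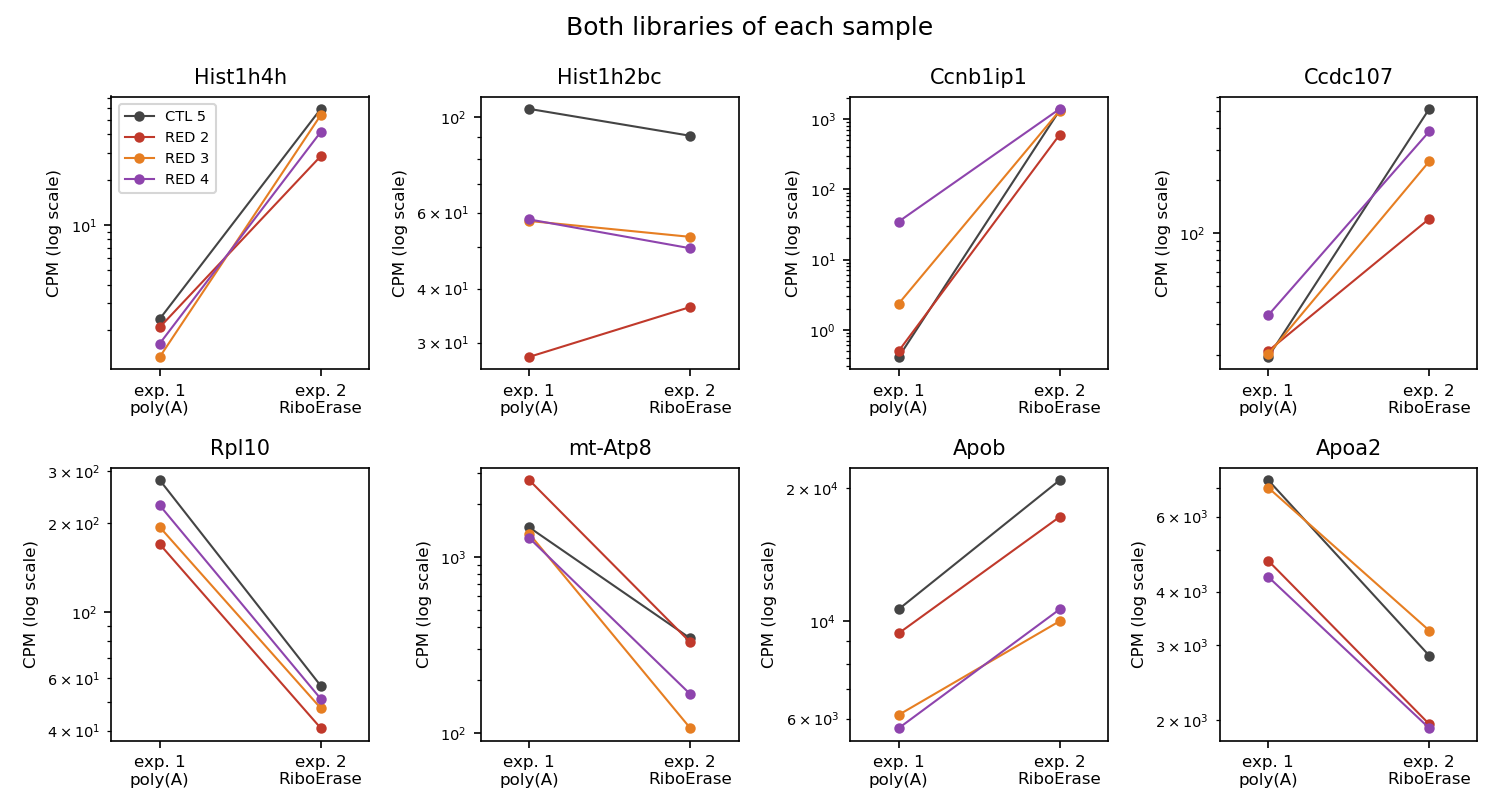
CPM (log scale, with its own range in each panel) of 8 genes in the experiment 1 and experiment 2 library of each sample, joined by a line. Hist1h4h, Ccnb1ip1, Ccdc107 and Apob rise in all 4 samples, Rpl10, mt-Atp8 and Apoa2 fall in all 4, and Hist1h2bc goes up in RED 2 and down in the others.

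Other well-counted genes that rose had no overlap with the small RNAs that were searched. Grip2, which encodes a glutamate receptor interacting protein, went from 0.820, 8.66, 1.52 and 25.3 CPM to 103.9, 100.9, 97.3 and 82.4 CPM (log2 3.81 ± 0.59). Its experiment 2 values were nearly equal, while its experiment 1 values spread widely and were highest in RED 4. Zfhx3 (ENSMUSG00000038872.10, chromosome 8, 107942644 to 108961630), a large zinc finger homeobox factor, rose from 13.6, 9.84, 7.78 and 10.2 CPM to 74.0, 66.5, 63.5 and 51.4 CPM (log2 2.64 ± 0.10). Eppk1, the epithelial cytolinker epiplakin, rose from 32.5, 36.3, 20.99 and 23.5 CPM to 196.9, 230.2, 137 and 116 CPM (log2 2.57 ± 0.07). Sco2, a copper chaperone of cytochrome c oxidase, rose by 2.84 ± 0.52, with a value of 0 in the experiment 1 library of RED 4 and 16.3 CPM in that of RED 2. Among the 15 genes at least 16-fold higher in experiment 2 with a mean there of at least 10 CPM, the experiment 1 library of RED 4 had the highest residual level in 9, of which 3 identifiers carry identical values. With these taken once it was highest in 7 of the 11 that had any experiment 1 value. The median experiment 1 level of these 15 genes, as a percentage of the same sample's experiment 2 level, was 3.28% in RED 4 and 0.331%, 0.0825% and 0.208% in CTL 5, RED 2 and RED 3. Over the 13 distinct genes the medians were 2.51% and 1.02%, 0.988% and 0.322% in the same order.

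Mitochondrially encoded mRNAs, most of which carry short poly(A) tails, tended to be lower in experiment 2. Of the 13, 1 was higher and 8 were lower, against 28.7% and 27% of all genes. The median was -0.50 (-0.27 by library totals, with 3 higher and 7 lower). Their share of all counts was 6.66 ± 1.13% (SD, n = 4) in experiment 1 and 5.26 ± 0.28% in experiment 2. It fell in each of the 4 samples, by 0.10 on the log2 scale in CTL 5 and by 0.56 in RED 2 (exact permutation p 0.13). With the 20 most abundant genes left out, some of them mitochondrial, it rose by 0.096 in CTL 5 and fell in the 3 RED samples (exact permutation p 0.25). mt-Co1, the largest subunit of cytochrome c oxidase and the most abundant of the 13, went from 31899, 29364.5, 27654 and 28350.2 CPM to 21113, 16846, 15897 and 19242 CPM (log2 -0.69 ± 0.05). The ranges did not overlap. mt-Co2 and mt-Co3, the other 2 core subunits, had -1.26 and -1.20, mt-Nd2 of complex I -1.07 and mt-Cytb of complex III -0.50.

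The largest fall was in mt-Atp8 (ENSMUSG00000064356.3, mitochondrial genome, 7766 to 7969), whose reading frame overlaps that of mt-Atp6. It went from 1468, 2721, 1351 and 1278 CPM to 345, 328, 107 and 166 CPM (log2 -2.94 ± 0.20), while mt-Atp6, also a subunit of ATP synthase, was the member that rose (0.46). Summed, the 2 genes differed by a mean log2 of -0.05 ± 0.35 (SD over 4 pairs), up in CTL 5 and RED 4 and down in RED 2 and RED 3. A nuclear pseudogene with the same bases moved the other way from its source. Gm29216 on chromosome 1, of whose 31-mers 97.2% also occur in mt-Co1, went from 0.456, 0.816, 1.07 and 1.33 CPM to 2307, 1691, 1807 and 2206 CPM (log2 11.06 ± 0.20). Added together, mt-Co1 and Gm29216 still fell by a mean of 0.54 ± 0.13 in the 4 samples. The 13 mRNAs and 7 nuclear copies together fell by 0.48 ± 0.19 in all 4 (exact permutation p 0.13). All 31-mers of the nuclear copies Gm28661 and Gm28437 also occur in mitochondrial RNA, mostly mt-Co2 and mt-Co3. In experiment 1 their means were 5051 and 2538 CPM, against 2221 for mt-Co2 and 6372 for mt-Co3. Gm28661 fell by only 0.38, and Gm28437 did not pass (0.25). Reads of such copies cannot be assigned with certainty. The single values of mt-Atp8, mt-Atp6, mt-Co1, mt-Co2, mt-Co3 and Gm29216 are therefore uncertain and the sums less so.

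Genes for the cytosolic ribosome, whose mRNAs are short, fell together. Of 81 ribosomal protein genes tested, 72 were lower in experiment 2 and 5 were higher (27% and 28.7% of all genes), with a median of -0.74, and -0.51 by library totals (66 lower, 9 higher). The list median in single samples ran from -0.78 to -0.63. The share of counts went from 1.34 ± 0.10% to 0.974 ± 0.10% (SD, n = 4) and fell in each sample. Rpl10 (ENSMUSG00000008682.13, chromosome X, 74270812 to 74273135), a protein of the large subunit whose transcripts also hold bases of the small nucleolar RNA Snora70, went from 279, 169.7, 194 and 229 CPM to 56.6, 40.8, 47.6 and 51.2 CPM (log2 -2.14 ± 0.06). Rpl35a and Rpl36a fell by 1.87 and 1.53, and the more abundant Rplp1, Rpl4, Rpl7a and Rpsa by 1.31, 0.85, 0.65 and 0.58. Among the members that rose were Rps12, which overlaps Snora33, and Rpl5, Fau and Rpl8 (0.37, 0.23 and 0.23). Ribosomal protein genes have many processed copies, so their single values are uncertain where those copies share reads. The 5147 other protein-coding genes with transcripts of 457 to 2606 bases, the range of the ribosomal protein genes from the 5th to the 95th percentile, had a median of -0.26, with 2550 lower (49.5%) and 575 higher.

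Nuclear genes of oxidative phosphorylation, which supply the rest of the respiratory chain, were also mostly lower. Of 36 tested, 35 were lower and none was higher, against 27% and 28.7% of all genes. The median was -0.72 (-0.48 by library totals). Uqcrh, a small subunit of complex III, fell by 1.53 ± 0.06, and Ndufa4, a small subunit linked to cytochrome c oxidase, by 1.27 ± 0.05. The longer mRNAs of the ATP synthase core, Atp5b and Atp5a1, fell by 0.33 and 0.25, and that of the succinate dehydrogenase subunit Sdha by 0.27. Across the 36 genes the fold change rose with transcript length (Spearman's rho 0.62, a description over genes of the same 8 libraries). Within the ribosomal protein genes it did not (rho 0.01), and within the replication-dependent histones it was lower in longer transcripts (rho -0.55). Among other short mRNAs, Sec61g, a subunit of the translocation channel of the endoplasmic reticulum, fell by 1.70 and Tmem258 by 1.52.

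**Figure D3:**
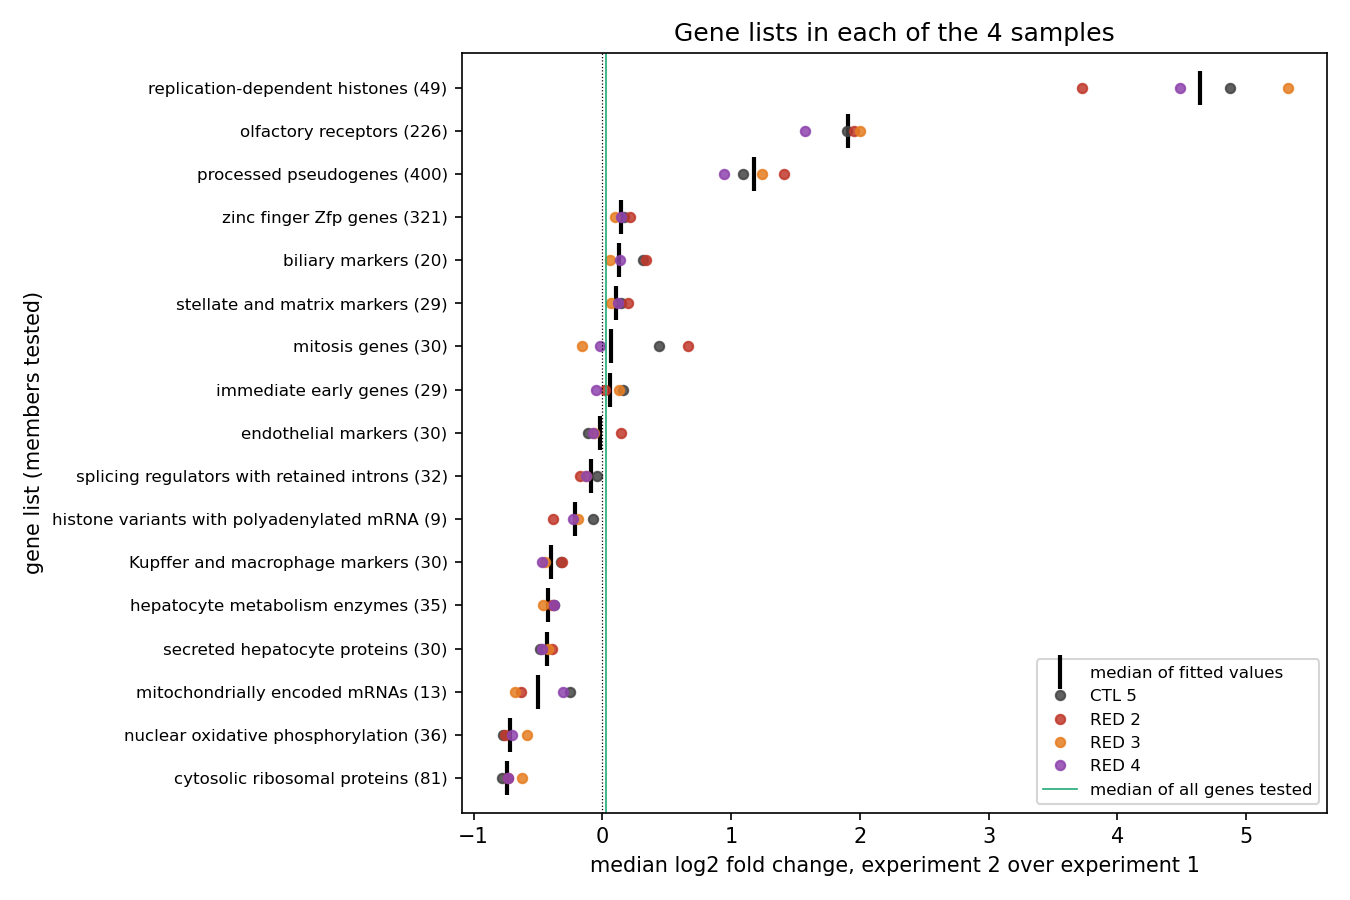
Median log2 fold change of each gene list, with the number of members tested in brackets. Bars are the medians of the fitted values and points the medians in single samples; replication-dependent histones (4.64), olfactory receptors (1.91) and processed pseudogenes (1.18) lie to the right of all others, and ribosomal proteins (-0.74) and oxidative phosphorylation (-0.72) to the left.

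Across all protein-coding genes the fold change also tended to rise with transcript length. When 13913 protein-coding genes were divided into 10 equal bins by their longest annotated transcript, the median log2 fold change climbed at every step, from -0.49 in the shortest bin (up to 1308 bases) to 0.51 in the longest (6773 bases or more). In the bin of shortest transcripts 64.4% of genes were lower, and in the longest 76.8% were higher. The rank correlation with length was 0.53 across genes, between 0.45 and 0.52 in the single samples, and -0.01 with GC content. Length of the 3′ UTR gave 0.35 and the number of exons 0.17. By library totals the medians ran from -0.26 to 0.75 and changed sign between bins 2 and 3, in place of between bins 5 and 6. The 332 single-exon genes outside the histone list had a median of 0.22 and the 13536 genes with several exons one of 0.01. Annotated length is not the length of the transcript present, and read coverage along transcripts is not in count tables.

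**Figure D4:**
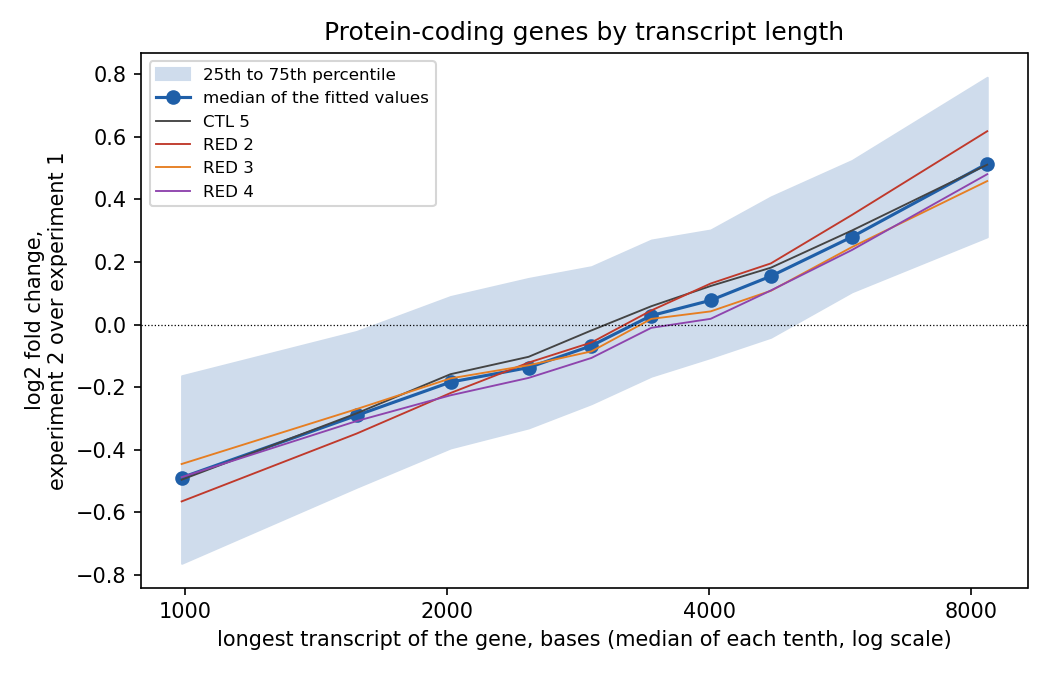
Median log2 fold change (experiment 2 over experiment 1) in 10 bins of protein-coding genes by length of the longest transcript (log axis). The thick line and band give the median and the 25th to 75th percentiles of the fitted values, and thin lines the medians in single samples; every line climbs from below -0.4 to above 0.4.

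Lists with longer mRNAs lay near or above the median of all genes. Of 321 zinc finger genes named Zfp, most of them transcriptional repressors, 102 were higher and 27 lower (median 0.14, and 0.37 by library totals). Over all genes the shares were 28.7% and 27%, so the higher Zfp genes were near their share and the lower ones below it. The splicing regulators known for retained introns had 6 of 32 higher and 15 lower. The lower ones were thus above their share of all genes and the higher ones below it. Their median of -0.09 became 0.14 by library totals, with 15 higher and 8 lower. Son, a large nuclear speckle protein, rose by 0.34 and Hnrnpu, a nuclear matrix ribonucleoprotein, by 0.43, while the RNA helicase gene Ddx5, Srsf5 and Tra2a fell by 0.37, 0.58 and 0.62. Immediate early genes, which tissue dissociation can induce, had 10 of 29 higher and 8 lower (median 0.06), close to the shares over all genes. Fos fell by 0.54, Jun (-0.11) and Egr1 (-0.05) did not pass, and Nr4a3 and Fosl2 rose by 1.04 and 0.84.

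Genes of hepatocyte function were mostly lower in experiment 2, by modest factors. Of 30 genes for secreted plasma proteins 26 were lower and 1 was higher (27% and 28.7% of all genes), with a median of -0.43. By library totals the median was -0.19, with 20 lower and 2 higher. Alb (ENSMUSG00000029368.10, chromosome 5, 90460897 to 90476602) went from 114079, 52549, 89404 and 76803 CPM to 72839.5, 41829.7, 60271 and 49262 CPM, lower in each of the 4 samples, though the ranges overlapped (log2 -0.55 ± 0.05). Apoa2 (ENSMUSG00000005681.12, chromosome 1, 171225054 to 171226379), a short apolipoprotein mRNA, went from 7308, 4729, 7016 and 4334 CPM to 2832, 1956, 3243 and 1914 CPM without overlap (log2 -1.23 ± 0.05). Apob (ENSMUSG00000020609.14, chromosome 12, 7977648 to 8016835), the very long mRNA of the main protein of VLDL, was the member that rose: it went from 10633.5, 9378, 6122 and 5712 CPM to 20867, 17227, 9989.7 and 10628 CPM (log2 0.86 ± 0.05). Apoc3, Apoe and the transferrin gene Trf fell by 0.98, 0.50 and 0.16, but Trf was 0.07 by library totals. The share of the 30 genes in all counts was 22.6 ± 1.15% in experiment 1 and 19.8 ± 0.69% in experiment 2.

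Metabolic enzymes gave similar counts. Of 35 tested, 27 were lower and 2 were higher, against 27% and 28.7% of all genes. The median was -0.43 (-0.19 by library totals, with 20 lower and 7 higher). Tdo2 of tryptophan breakdown, the glutathione transferase gene Gstm1, Cyp3a11 and Bhmt of methionine synthesis fell by 0.87, 0.70, 0.66 and 0.57. Cps1, the entry enzyme of the urea cycle, and Scd1, the stearoyl-CoA desaturase, did not pass (0.13 and -0.08). The glucagon receptor gene Gcgr fell by 0.31, and Mlxipl, which encodes the carbohydrate response factor ChREBP, did not pass (-0.05). The major urinary protein genes, secreted pheromone carriers with near-identical sequences, are uncertain one by one: Mup17, Mup9 and Mup11 fell by 2.37, 1.96 and 1.84. Summed over 19 Mup genes the fall was 0.76 ± 0.08 (SD) and occurred in all 4 samples.

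Endothelial, stellate and macrophage markers were present in both kits, at higher levels in the RED samples than in CTL 5. The 30 endothelial genes held 0.0115% of counts in CTL 5 and 0.0558 to 0.214% in RED in experiment 1, and 0.0149% and 0.0759 to 0.275% in experiment 2. The 30 stellate cell and matrix genes had 0.0123% in CTL 5 and 0.0502 to 0.171% in RED, then 0.0160% and 0.0631 to 0.208%. The 30 Kupffer cell and macrophage genes had 0.00863% and 0.0264 to 0.156%, then 0.00866% and 0.0249 to 0.145%. In these 3 lists and either kit CTL 5 was lowest and RED 4 highest. The 29 biliary genes did not follow this order: they had 0.0481% in CTL 5 and 0.0350 to 0.0533% in RED in experiment 1, and 0.0489% and 0.0430 to 0.0520% in experiment 2, with RED 2 and RED 3 below CTL 5 in each. In bulk samples fewer cells of a type and less RNA per cell cannot be told apart.

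By gene, 10 of 30 endothelial members were higher and 10 lower, near the 28.7% and 27% of all genes (median -0.02). By library totals 15 were higher and 2 lower. Their median was then 0.22, beside 0.26 for all genes. Long mRNAs such as Ptprb and Stab2, a tyrosine phosphatase and a scavenger receptor, rose by 0.60 and 0.41, and the short Gpihbp1, which anchors lipoprotein lipase, fell by 1.17. Of 29 stellate and matrix genes 10 were higher and 7 lower, again near those shares (median 0.10). The collagen gene Col1a1 and the long Reln rose by 0.47 and 0.55, Thy1 rose by 1.51, and the small proteoglycan genes Dcn and Lum fell by 0.92 and 1.07. Sparc, a matrix glycoprotein gene, had -0.17 and changed sign to 0.06 by library totals. None of the 30 macrophage genes was higher and 20 were lower (median -0.40), against 28.7% and 27% of all genes. By library totals the counts were 2 higher and 11 lower. The signalling adaptor gene Tyrobp, the lysozyme gene Lyz2 and the lectin gene Clec4f fell by 1.17, 0.72 and 0.49, and the long Mrc1 did not pass (0.17). Within these 3 lists the fold change rose with transcript length (rho 0.75 for the endothelial, 0.57 for the stellate and 0.71 for the macrophage genes, over genes).

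Of the 29 biliary genes listed by the tables, 20 were tested, with 7 higher and 1 lower (median 0.13), against 28.7% and 27% of all genes. The one that fell was Spp1, the osteopontin gene that drives the Cre, from 415, 153, 70.4 and 298 CPM to 266, 98.9, 38.1 and 167 CPM (log2 -0.74). Its order among the samples was the same in both kits. The bile duct keratin gene Krt19 did not pass (-0.02), and the membrane protease gene St14 rose by 1.76. Few lymphocyte, neutrophil and erythroid markers had enough counts: 5 of 17, 6 of 13 and 6 of 11 were tested, with 1 higher in each and 1, 2 and 2 lower. Few mitosis genes passed, with 3 of 30 higher and 2 lower (median 0.07), below the 28.7% and 27% of all genes. By library totals 10 were higher and none lower, beside 6960 and 1950 of all 14625 genes tested. The proliferation marker Mki67 and the kinetochore gene Cenpf rose by 0.76 and 1.12, and the cyclin-dependent kinase gene Cdk1 fell by 0.39.

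The difference between the injured and the healthy samples was set side by side in the kits. With a single CTL sample, RED minus CTL 5 is given without a test. Its median had the same sign in either kit for every list except the histone variants (0.22 and -0.05). The median over the 30 endothelial genes was 3.03 on the log2 scale in experiment 1 and 2.99 in experiment 2, over the stellate genes 3.21 and 3.02, over the macrophage genes 2.68 and 2.45 and over the mitosis genes 2.60 and 2.46. Secreted proteins had -0.50 and -0.52, metabolic enzymes -0.31 and -0.28, ribosomal proteins -0.52 and -0.47. All 30 endothelial and all 30 mitosis genes were higher in RED in either kit. Mitochondrial mRNAs had -0.06 in experiment 1 and -0.48 in experiment 2, and replication-dependent histones 0.42 and 0.60. Col1a1 was 3.19 higher in RED in experiment 1 and 3.55 in experiment 2, and Mki67 3.39 and 3.41. The libraries of the 2 kits come from the same samples, so these values are not independent.

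**Figure D5:**
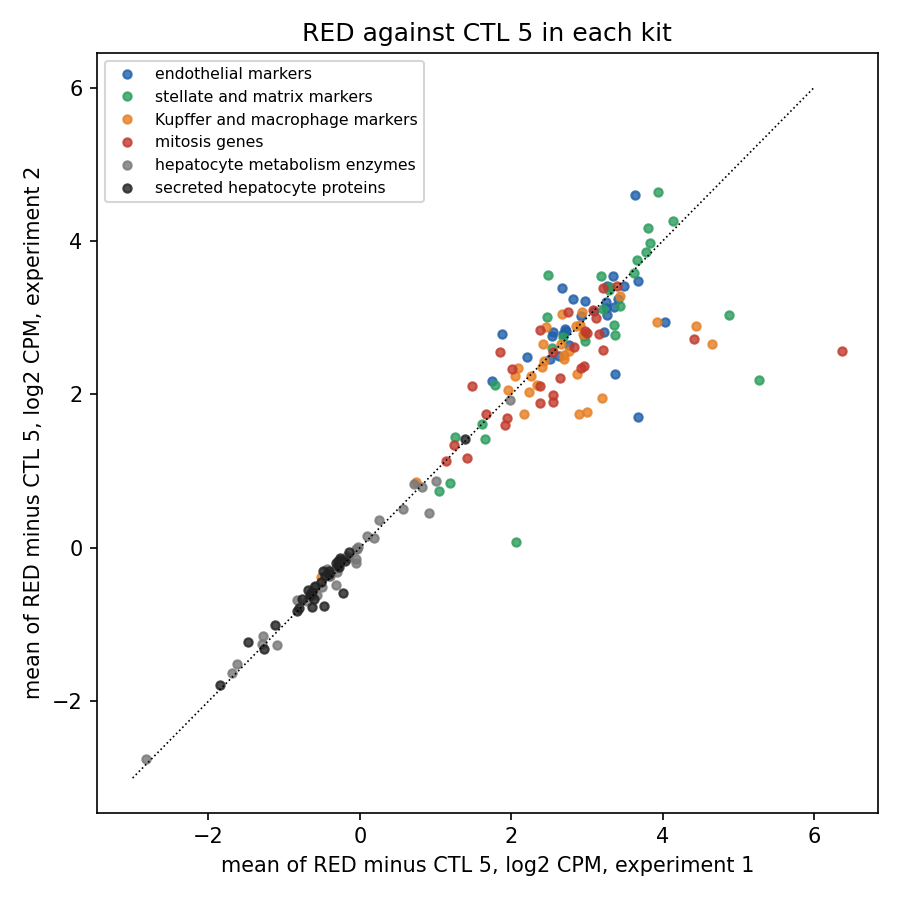
Mean of RED 2, RED 3 and RED 4 minus CTL 5 (log2 CPM) in experiment 1 against the same difference in experiment 2, with 1 point per gene and the dotted line where the 2 are equal. Endothelial, stellate, macrophage and mitosis genes lie mostly between 1 and 5 on both axes, and hepatocyte genes near or below 0.

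A term for a kit difference that depends on the group was significant for 10 of 14625 genes (0.0684%; edgeR quasi-likelihood test with Benjamini-Hochberg adjustment), 2 with a higher log2 fold change in RED than in CTL 5 (0.0137%) and 8 with a lower one (0.0547%). CTL 5 is the only control in this test and was assumed to vary like the RED samples. The count depended on single pairs, with 42 genes without RED 2, 17 without RED 3 and 57 without RED 4. Of the 10, 6 were Mup genes or identifiers with the same values as one. Mup18 had 10.1 CPM in CTL 5, and 776.9, 28.1 and 1934 CPM in RED 2, RED 3 and RED 4 in experiment 1, and 18.0, 124, 5.60 and 353 CPM in experiment 2, so that it was higher in CTL 5 and lower in each RED sample (difference of log2 fold changes -3.32, adjusted p 8.6e-05). Mup14 and the identifier ENSMUSG00000106700.3 had identical values and a difference of -3.51, and Gm28438, a nuclear copy of mt-Nd3, had -7.47. Apart from the Mup genes and nuclear copies of mitochondrial genes, the interferon-inducible gene Ifi203 had a difference of 2.10. Split reads within these families make the single genes uncertain.

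Olfactory receptor genes, which are not known for a role in hepatocytes, and processed pseudogenes were described after their values were seen, and no test was made of either list. Of 1092 olfactory receptor genes 226 were tested, and 189 of these were higher and 4 lower, against 28.7% and 27% of all genes. Their median was 1.91 (pair medians 1.57 to 2.00). Treated as unpaired, 65 were higher and none lower. The filter keeps a gene that is high in either experiment, so the 226 are not a random draw of the 1092. Without the filter 319 of 652 were higher and 5 lower (median 2.08). The list held 0.0243 to 0.0459% of counts in experiment 1 and 0.0512 to 0.131% in experiment 2, with RED 2 highest in each. Between 311 and 430 of the genes had a count in a library of experiment 1 and 558 to 618 in one of experiment 2, at the greater depth of the latter. In the libraries of other samples the share was 0.0251 to 0.0460% in 6 of experiment 1 and 0.0582 to 0.118% in 5 of experiment 2. The most abundant member, Olfr635, rose by 2.52 ± 0.14.

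Of 400 processed pseudogenes tested, 224 were higher and 55 lower (median 1.18), against 28.7% and 27% of all genes. When treated as unpaired, 98 were higher and 33 lower. The same filter chose these 400 from the 9287 listed. Without it 543 of 3946 were higher and 78 lower (median 1.39). The share of counts of all listed processed pseudogenes went from 0.231 to 0.385% up to 2.08 to 2.46%. Most of that gain lay in Gm12895 and Gm12896. These 2 pseudogenes on chromosome 4 and the identifier ENSMUSG00000106949.1 carried identical values: 0.547, 2.86, 3.71 and 440.2 CPM in experiment 1 and 10999.6, 7095, 7671 and 8894 CPM in experiment 2. RED 4 again had the highest experiment 1 value. Without the 2, the share was 0.231 to 0.298% in experiment 1 and 0.324 to 0.494% in experiment 2. Copies of translation genes moved in either direction. Tpt1-ps3 and Rpl28-ps1 had no count in experiment 1 and were at least 1790-fold and 531-fold higher in experiment 2, while Gm9843 had none in experiment 2 and was at least 2713-fold lower there. The parent genes Tpt1 and Rpl28 fell by 0.58 and 0.67. In the libraries of other samples Rpl28-ps1 and Gm9843 passed in the same directions, but Tpt1-ps3 (log2 3.65) did not pass. In all, 214 genes tested, in 105 groups, had the same values in the 8 libraries as another identifier. Gdap1, a mitochondrial fission gene, fell from 20.5, 14.9, 6.01 and 61.1 CPM to 0.0555, 0.259, 0.169 and 0.121 CPM (log2 -7.31 ± 0.34).

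More genes had a count in experiment 2, and the gap was also present at equal depth. Thinned to the 22442607 counts of the shallowest library, experiment 1 libraries had 16320.4, 17880 (not thinned), 17559 and 17410.2 genes with at least 1 count and experiment 2 libraries had 18356, 20118, 19857 and 19379.6, in the order of samples used above. The mean difference was 2135 ± 158 genes (SD, n = 4), positive in all 4 samples (exact permutation p 0.13, the smallest that 4 pairs allow). For genes with at least 10 counts it was 1280.5 ± 387. With the libraries as deposited, 476 genes had a count in all 4 experiment 2 libraries and in none of experiment 1, and 10 the reverse. Of the 476, 250 were processed pseudogenes and 198 were protein coding, with 41 olfactory receptors and 8 histones among them. Processed pseudogenes made up 52.5% of the 476, against 6.60% of the 17779 genes with a count in all 4 experiment 2 libraries, and protein-coding genes 41.6% against 90.1%. Olfactory receptors made up 8.61% against 2.79%, and histones 1.68% against 0.349%.

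The same contrast in libraries of other samples had less precision, and some lists went the other way. It used CTL 1, CTL 2, GREEN 1, GREEN 2 and GREEN 3 of experiment 2 and CTL 3, CTL 4, GREEN 4 and GREEN 5 of experiment 1, so that kit and sample differ together. The library codes of GREEN 1, GREEN 2 and GREEN 3 carry the same numbers as those of RED 2, RED 3 and RED 4, and whether they share animals is not stated. Of 16215 genes tested 1386 passed (8.55%), 840 higher (5.18%) and 546 lower (3.37%). This count was 1471 without GREEN 3 and between 228 (without GREEN 4) and 904 (without GREEN 5) when any other library was left out. Of the 8129 genes called in the paired fit and tested in both, 6473 (79.6%) had the same sign, against 70.6% of all 14578 genes tested in both, and 1141 passed in the same direction, which is 14.0% of the paired calls and 94.4% of the 1209 calls of the other libraries. Of the 702 that passed against 2-fold, 696 had the same sign. The median standard error was 0.25, against 0.09 in the pairs. Replication-dependent histones had 40 of 48 higher and none lower (median 5.56), ribosomal proteins 3 of 81 higher and 40 lower (median -0.61) and oxidative phosphorylation genes 0 of 36 higher and 4 lower (median -0.17). Secreted proteins and metabolic enzymes had medians of 0.23 and 0.39 there, opposite in sign to the pairs, with 0 of 30 and 1 of 35 called. The Zfp (-0.12), biliary (-0.73), stellate (-0.25), immediate early (-0.20), lymphocyte (-0.20) and endothelial (0.13) medians also had the opposite sign there. The correlation with transcript length was 0.25 over genes, and the median still climbed from -0.24 in the shortest bin to 0.29 in the longest.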

How the data were processed

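Estimated counts per gene were deposited by the authors, unscaled, 1 table per experiment. They were made with kallisto 0.43.1 on GRCm38, per the submitters' processing notes; the sources used here do not give the annotation release, the strand setting or the sum over transcripts. Kallisto shares reads among near-identical sequences, so copies are uncertain. Of 35274 identifiers, 34924 (99%) were found in GENCODE M21, which gave names, positions, lengths and sequences. Only protein-coding genes, pseudogenes and a few others are listed.

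Counts were rounded, filtered with filterByExpr and scaled by TMM. The quasi-likelihood test of edgeR 4.0.16 (R 4.3.3) had terms for sample and experiment, with an adjusted p threshold of 0.05 over all genes; a test against 2-fold, the interaction with group and the fit of other libraries used the same tool. Alternatives used limma 3.58.1 and DESeq2 1.42.0. Each sample is its own pair, per the labels, and deviations of the 2 libraries correlated at 0.78 to 0.91. CPM are TMM-scaled, errors are SE of the fit unless SD is written, and floors (3 counts over 4 libraries) and intervals cover counting error only. No label says which samples came from separate animals, beyond calling them biological replicates.

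Named genes were the 12 largest changes in each direction with a mean of at least 10 CPM, the same sign in 4 pairs and an established symbol, up to 4 most abundant and 2 most changed members per list, 10 genes of interest and up to 6 of the interaction; others named beside them were taken from the same lists. The samples and lists were chosen with earlier results of these data known. On simulated data the paired fit recovered 57 of 67 genes changed 1.5-fold, 67 of 67 changed 2-fold and 66 of 66 changed 4-fold, and called 8 unchanged genes among 14515 tested. The simulation changed only a small set of well-counted genes, as many up as down, and gave every gene the same dispersion. Low counts, shared reads and scaling when most genes differ were not tested by it.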

Additional observations from a re-analysis of the deposited data

Results flagged for a closer look

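The secreted hepatocyte protein share of counts had 1 sample far from the others. The log2 ratio of experiment 2 to experiment 1 was -0.09 in RED 2 and -0.23, -0.22 and -0.23 in CTL 5, RED 3 and RED 4, and the gap of RED 2 to its neighbour made up 0.899 of the whole range. Of 62 values looked at in this way 1 stood out, and chance gives about 1 in 20. RED 2 also had the lowest share of these genes of the 4 samples in experiment 1 (21.3%).

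The kit difference itself differed between RED and CTL 5 for 10 genes by the interaction test (edgeR quasi-likelihood, Benjamini-Hochberg adjusted p under 0.05). Besides Mup18, Mup14, Gm28438 and Ifi203 these were Mup15 and an identifier with its values (-2.01), Mup8 (-3.33), the pseudogene Gm49273 (1.46) and the cell junction gene Arvcf (-1.64). Arvcf had 2.37 CPM in CTL 5 in experiment 1 and 8.60 CPM in experiment 2, and rose by 0.19 to 0.25 in the RED samples. Each of these values rests on the single CTL 5 pair.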

How the results depend on the processing

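Directions of the paired comparison held under most settings, and counts depended most on the pairing. Without the replicate block, that is with the 2 libraries of a sample treated as unpaired, 2389 genes passed (1157 higher, 1232 lower) in place of 8146, and 75 (58 higher, 17 lower) in place of 707 against 2-fold. In that fit the histone list had 39 higher calls, ribosomal proteins 61 lower, oxidative phosphorylation 29 lower, mitochondrial mRNAs 4 lower, secreted proteins 5 lower, metabolic enzymes 2 lower, Zfp genes 24 higher and 3 lower, olfactory receptors 65 higher, processed pseudogenes 98 higher and 33 lower, and the endothelial, stellate, macrophage and mitosis lists none; the medians of these lists had the same signs as with the block. Other settings gave 6296 (genes with a mean of at least 5 CPM) to 9083 (no filter) calls, 7493 with DESeq2 and 8362 with limma-voom. Without a filter on low counts 1106 genes (990 higher, 116 lower) passed against 2-fold, among 23623 tested. Leaving out each sample gave 6857 to 7627 calls, 465 to 743 against 2-fold (465 without RED 3) and 17 to 57 for the interaction with group, for which CTL 5 could not be left out. The interaction gave 12 calls with DESeq2 and 10 by library totals.

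In the libraries of other samples 14 genes (13 higher, 1 lower) passed with CTL alone, 22 (18 higher, 4 lower) with GREEN alone, 644 (498 higher, 146 lower) by library totals and 228 to 1471 with single libraries left out, the last chosen after seeing the data. Fewer samples enter the CTL and GREEN fits; for the library totals the cause was not tested.

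Of 131 named genes under all alternatives, 1548 values in all, 3 were classed as reversed, each by library totals: Ddx17 (0.015), Trf (0.074) and Sparc (0.061). Hist1h2bc, which did not pass, is not among these 3, although it had -0.06 with TMM and 0.18 by library totals. A further 108 no longer passed, 66 of them without the block, and 24 newly passed. Leaving out the 20 most abundant genes moved the mean log2 ratio of the secreted protein share from -0.19 to -0.32 and that of the endothelial share from 0.38 to 0.33. With 10 counts required in place of 1, the gap in genes detected at equal depth was 1280.5. Exact tests of shares cannot go below 0.13 with 4 pairs, so they say nothing about stability, and genes at or under 3 counts in an experiment have bounds only.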
